A study of Homo sapiens with 6 samples.

Results

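Regions of histone H3 lysine 4 trimethylation (H3K4me3) that lie inside protein-coding genes, away from any transcription start site (TSS) and without H3K27 acetylation (H3K27ac), were examined in HSC3, an established cell line of oral squamous cell carcinoma (OSCC). A region was taken from the H3K4me3 list of cells transfected with a control siRNA (siCONT) when it lay more than 1 kb from every annotated TSS of a protein-coding or lncRNA gene, touched no H3K27ac region of the same cells and had its summit inside a protein-coding gene. These gene-body regions numbered 17797 of 58582 H3K4me3 regions (30.4%) and covered 11.7 of 45.2 Mb. The other cells had been transfected with siDLEU1, an siRNA against the lncRNA DLEU1 that the study calls siDLEU1-2, and both were collected 72 h after transfection. Each siRNA and mark had 1 library, so no p-value is given, and each interval is at 95%. Intervals of shares are Wilson intervals, and those of shares and of differences between shares cover the counting of regions only. The study used these libraries to look for genes downstream of DLEU1 in this cancer.

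H3K4me3 is placed by SET1 and MLL family enzymes and is best known from nucleosomes around active and poised promoters, while H3K27ac marks active promoters and enhancers. Short stretches of H3K4me3 also occur away from promoters, at enhancers and at unannotated start sites, and usually with weaker signal than at promoters. AP-1, the dimers of FOS and JUN proteins, is a main factor at enhancers of squamous epithelial cells and binds TGACTCA.

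The sequences below show the low CpG content at summits, and then a motif that some of the gaps between neighbouring regions held. The first windows are the 200 bases around the summits of the 2 gene-body regions of highest fold enrichment, followed by the summit of a gene-body region that carried H3K27ac, in WNT5B. They are read on the plus strand of GRCh37 (hg19), lie in introns, and have each CpG in capitals, of which there are 1, 2 and 8.
BCL2L13, chr22:18116540-18116739: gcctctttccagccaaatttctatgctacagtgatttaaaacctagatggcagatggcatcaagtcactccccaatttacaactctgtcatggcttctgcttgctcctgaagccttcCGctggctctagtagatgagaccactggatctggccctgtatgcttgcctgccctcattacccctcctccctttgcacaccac
SYNE2, chr14:64526737-64526936: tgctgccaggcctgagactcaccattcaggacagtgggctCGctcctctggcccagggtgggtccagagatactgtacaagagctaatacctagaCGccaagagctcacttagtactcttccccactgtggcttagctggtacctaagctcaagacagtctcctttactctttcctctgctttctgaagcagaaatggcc
WNT5B, chr12:1714684-1714883: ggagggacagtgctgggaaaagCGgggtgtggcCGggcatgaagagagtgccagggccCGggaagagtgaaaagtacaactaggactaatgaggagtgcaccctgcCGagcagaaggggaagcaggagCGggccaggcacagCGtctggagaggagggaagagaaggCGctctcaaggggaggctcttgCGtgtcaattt

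Gene-body regions often lay side by side, with a short gap between them that the list left out. The 4 gaps printed next are among the 5 intronic gaps holding TGACTCA, on either strand, whose weaker neighbouring region had the highest fold enrichment. The motif is in capitals (TGACTCA or its reverse complement TGAGTCA), and the whole gap is given on the plus strand of GRCh37.
CPA5, chr7:129996122-129996348: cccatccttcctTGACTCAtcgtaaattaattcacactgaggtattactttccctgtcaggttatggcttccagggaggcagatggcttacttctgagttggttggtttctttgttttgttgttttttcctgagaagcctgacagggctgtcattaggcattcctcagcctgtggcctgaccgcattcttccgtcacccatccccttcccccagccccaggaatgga
IHO1, chr3:49276287-49276451: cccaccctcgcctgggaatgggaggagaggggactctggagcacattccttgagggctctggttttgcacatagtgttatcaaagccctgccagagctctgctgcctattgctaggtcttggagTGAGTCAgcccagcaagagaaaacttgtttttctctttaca
RAB31, chr18:9825680-9825793: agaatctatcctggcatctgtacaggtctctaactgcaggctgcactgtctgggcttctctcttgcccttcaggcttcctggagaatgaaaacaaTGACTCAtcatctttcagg
AP1B1, chr22:29773254-29773327: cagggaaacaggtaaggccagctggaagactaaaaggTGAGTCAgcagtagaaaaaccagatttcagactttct

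At the gap in CPA5, a carboxypeptidase gene, the regions on the left and right had 106 and 117 fragments at their summits in siCONT cells and 100 and 124 in siDLEU1 cells. At IHO1, a gene of meiotic recombination, the numbers were 114 and 108 in siCONT cells and 63 and 83 in siDLEU1 cells. At RAB31, a gene of vesicle transport, they were 152 and 172 in siCONT cells and 70 and 121 in siDLEU1 cells. Both regions were therefore present in both libraries at all 3 gaps. The numbers are not divided by library depth. At AP1B1, a gene of the clathrin adaptor, 1 siDLEU1 region spanned both siCONT regions and the gap.

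The lists name no read number, but the number of fragments at a summit could be solved for every region from its enrichment and its p, and the p was matched for 100% of regions. With an assumed genome of 2.7 Gb, and fragments assumed to be as long as the shortest region of a list (200 bp for H3K4me3 in siCONT and 186 bp in siDLEU1 cells), the H3K4me3 libraries held 28.4 M reads in siCONT and 22.3 M in siDLEU1 cells, and the H3K27ac libraries 21.5 M and 29.4 M. Of 10 squamous marker genes such as KRT5 and TP63, 10 carried both marks at a TSS in siCONT cells. Of 9 markers of other cells, 1 did, the collagen gene COL1A1.

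The gene-body regions were weaker and shorter than promoter regions and poor in CpG. Their median fold enrichment was 5.67 (quartiles 4.47 and 8.15), against 9.88 for the 23820 regions within 1 kb of a TSS. The median width was 446 bp against 671 bp, and the median number of fragments at the summit was 37 against 67. The median ratio of observed to expected CpG in 300 bp around the summit was 0.192, against 0.651 at TSSs, and a ratio above 0.6 was found in 1.80% against 56.4%.

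This low CpG content was shared with the 14486 distal regions outside protein-coding genes that also lacked H3K27ac, whose median ratio was 0.194. The 911 gene-body regions that did carry H3K27ac had a ratio of 0.612, and 52.5% of them were above 0.6. The GC box GGGCGG, a promoter element bound by SP factors, was present in 6.82% of gene-body regions without H3K27ac, 27.6% of those with it and 40.2% of TSS regions. All RefSeq promoters of the same length, given on GRCh38, held it in 42.6%.

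Other short motifs were searched on both strands of the same 300 bp. TGACTCA was present around 6.34% of summits, against 3.37% at TSS regions and 4.64% of promoters. Shorter windows of 250 bp, 1 kb away from the gaps between gene-body regions described below, held it in 5.63%, close to the summits. It was in 6.99% of distal regions outside protein-coding genes without H3K27ac and 6.26% of gene-body regions with it. The ETS motif CCGGAAG was present in 1.18%, against 5.70% at TSS regions and 9.36% of promoters, and in 1.51% of those distal regions. The CTCF core was rare everywhere, at 0.185% of gene-body regions and 0.635% of promoters. The ISRE core, a repeat of GAAA bound by interferon-activated factors, was found in 3.78%, near the 3.51% of promoters. For CACGTG the share was 3.53% (promoters 6.62%) and for TATAAA 16.7% (promoters 11.4%, those distal regions 14.7%).

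Almost all gene-body regions were intronic, in the proportion that the gene bodies themselves set. The summit lay in an intron in 16767 regions (94.2%, 93.9 to 94.5), and introns made up 93.9% of the 1179 Mb of gene body searched. A summit in any exon was found in 1030 regions (5.79%, 5.45 to 6.14), against 6.07% of bases. Coding exons held 266 summits (1.49%, 1.33 to 1.68), fewer than their 1.95% of bases. The 3′ UTRs held 567 (3.19%, against 3.17% of bases) and the 5′ UTRs 31 (0.174%, against 0.0823%).

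Within genes, the regions were concentrated toward the gene start. Of the 14804 summits in an intron of the canonical transcript, 39.7% (38.9 to 40.5) lay in the first intron, which holds 24.1% of intronic bases. When host genes were divided into 5 equal stretches, the first held 4300 regions (24.2%) and the last 2666. The median distance to a TSS was 8192 bp.

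They also sat mostly in genes with an active promoter. A host gene with both H3K4me3 and H3K27ac at a TSS was found for 15367 regions (86.3%), and such genes held 23.1 regions per Mb of gene body. Genes with H3K4me3 alone held 23.1 per Mb, genes with H3K27ac alone 4.74 and genes with neither mark 3.66. Whether transcripts start at these regions was not tested, since the files hold no RNA.

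By construction no gene-body region touched H3K27ac in siCONT cells, and the nearest H3K27ac region was at a median of 27.1 kb. The siCONT H3K27ac list held 19705 regions, against 58582 of H3K4me3, and its library was the shallower. Lack of H3K27ac here therefore means absence from that list, and weaker acetylation that was not called cannot be seen. Only 712 regions (4.0%) had one within 1 kb. Of regions at the limit of the rule, the 3 nearest to a TSS, at 1001 bp, had a fold enrichment of 4.77, 8.07 and 6.42, and 3 others at 999 or 1000 bp had 8.40, 3.95 and 6.88.

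The list from siDLEU1 cells, which the rule did not use, overlapped 11367 gene-body regions (63.9%, 63.2 to 64.6). Over all siCONT H3K4me3 regions the share was 76.4%, so gene-body regions were overlapped less often than the background. It was 72.5% (71.8 to 73.2) for distal regions outside protein-coding genes without H3K27ac, 83.5% (81.0 to 85.8) for gene-body regions with H3K27ac and 87.0% (86.6 to 87.5) for TSS regions. Among gene-body regions, overlap was 38.9% and 37.8% in the lowest 2 deciles of fold enrichment and rose in each later one, to 100% of the 555 in the highest.

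At matched strength the gap was smaller but remained. Averaged over the 10 deciles of fold enrichment, gene-body regions were overlapped 6.15 points less often than all other regions (interval 5.51 to 6.78). In the second decile the shares were 37.8% and 49.6%, in the middle one (decile 5) 71.3% and 78.6%, and in the eighth 96.8% and 98.4%. The mean difference was 4.82 points against distal regions outside protein-coding genes, 7.03 against TSS regions and 5.64 against gene-body regions with H3K27ac. In the tenth decile the shares differed by less than 1 point from each of these groups. The siDLEU1 library was also the shallower one, and depth and siRNA cannot be told apart with 1 library each.

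**Figure D1:**
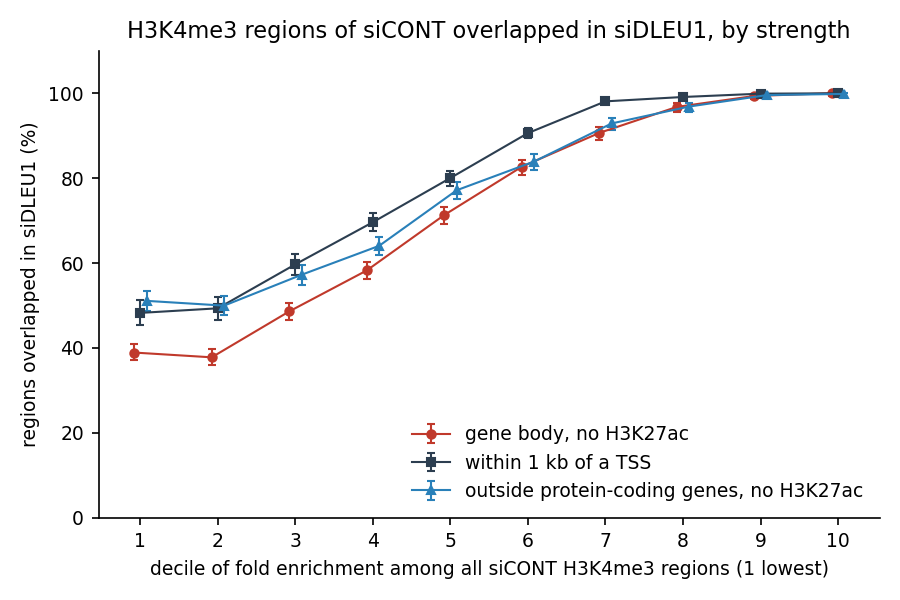
Share of siCONT H3K4me3 regions overlapped in siDLEU1 cells (y axis, %) against the decile of fold enrichment among all siCONT regions (x axis), for gene-body regions without H3K27ac, regions within 1 kb of a TSS and distal regions outside protein-coding genes; bars are 95% Wilson intervals. Gene-body regions run below the TSS regions in the lower 9 deciles, by 11.5 points in the second, and all groups meet near 100% at the top.

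In the other direction, 17003 regions of the siDLEU1 lists met the same rule there. The siCONT H3K4me3 list overlapped 72.6% of them (71.9 to 73.2), against 78.8% of all siDLEU1 regions. Regions of this kind were thus less often shared than the whole list whichever list was taken first. In this direction the shares were not matched on strength, and the whole list includes the regions themselves.

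Overlap did not differ between exons and introns beyond the counting error, at 64.2% (61.2 to 67.0) for exonic and 63.9% (63.1 to 64.6) for intronic summits. It rose with distance from the TSS, from 57.5% (55.4 to 59.6) at 1 to 2 kb to 68.1% (66.6 to 69.5) at 20 to 100 kb, while the median percentile of fold enrichment went from 31.4 to 37.2. First introns had 60.7% (59.4 to 61.9) and introns after the second 64.6% (63.5 to 65.8). Regions whose host lacked both marks at its TSS were overlapped in 72.3% (69.9 to 74.5), against 62.8% (62.0 to 63.6) where the host had both. Their median percentiles were close, at 36.4 and 35.4.

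**Figure D2:**
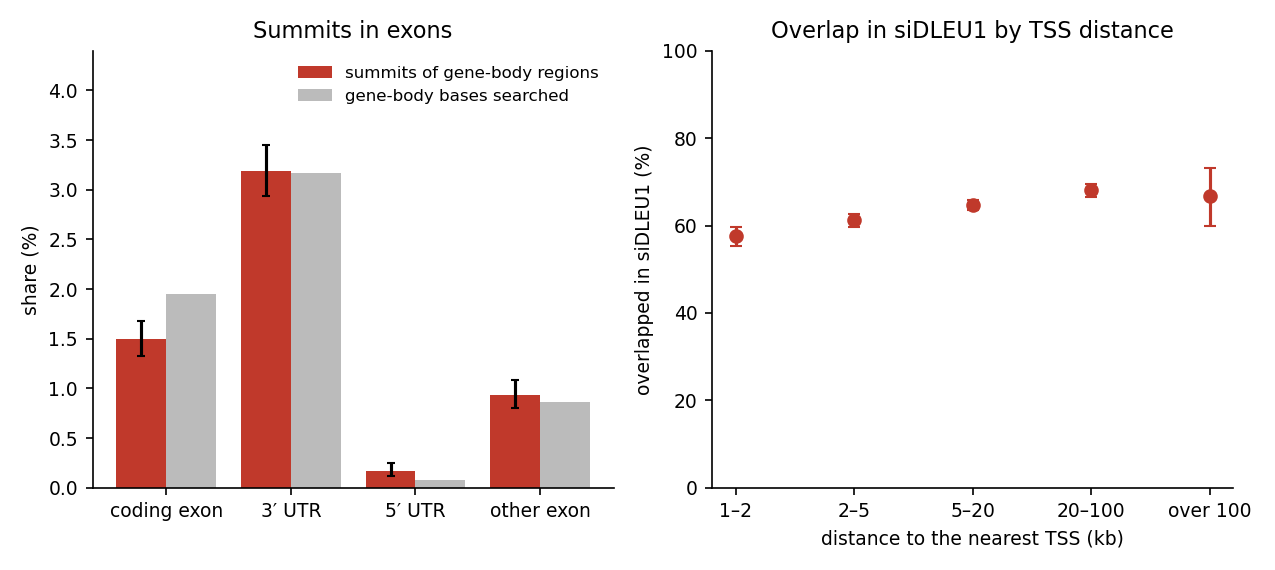
Left, share of gene-body region summits in each kind of exon (red, with 95% Wilson intervals) beside the share of searched gene-body bases (grey), in %. Right, share of gene-body regions overlapped in siDLEU1 cells (%) by distance to the nearest TSS in kb. Coding exons hold 1.49% of summits against 1.95% of bases, and overlap is lowest, at 57.5%, between 1 and 2 kb.

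Local background, which the peak caller divides by, moved with these shares as well. Overlap was 58.9% for the 5634 gene-body regions at the lowest background and 81.0% for the 1393 above 1.5. The latter had the lower fold enrichment (median percentile 17.7 against 39.0), but that measure is itself divided by local background. By chromosome, overlap ran from 54.8% on chromosome 20 to 68.0% on chromosome 6. The part of local background and copy number in these shares was not tested.

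Where a siDLEU1 summit fell inside a siCONT region, the fragments at both summits could be set side by side, each divided by the mean number of fragments per position of its library. This was so for 9836 gene-body regions. Where several siDLEU1 summits fell inside, the highest was used, and it need not lie at the same place as the siCONT summit. A fall of at least 1.5-fold in siDLEU1 cells was seen in 7.67% (7.16 to 8.21), against 5.45% of all regions, and a rise of that size in 21.1% against 21.6%. A weak region entered this comparison only where it was called again.

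Among the strongest, from the 70th percentile upward, the difference was wider. Of 2498 such gene-body regions 328 (13.1%, 11.9 to 14.5) fell by at least 1.5-fold, against 6.36% of all regions and 5.16% (4.81 to 5.54) of those outside the group. A rise of that size was seen in 7.85%, against 13.1% of all regions. Distal regions outside protein-coding genes without H3K27ac were close to them, with such a fall in 11.8%, 11.6% and 9.57% in deciles 8, 9 and 10, against 13.9%, 14.2% and 9.85% of gene-body regions. The wider gap was thus to TSS regions, at 5.13%, 3.58% and 2.17%. The median log2 ratio of siDLEU1 to siCONT coverage was -0.01 for gene-body regions and 0.21 for the others. In the tenth decile alone it was 0.00 for gene-body regions, 0.08 for distal regions outside protein-coding genes and 0.26 for TSS regions. The strongest gene-body regions thus kept their level while TSS regions rose on this scale, on which each library has a mean of 1.

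An H3K27ac region of siDLEU1 cells touched 18 of the 17797 gene-body regions (0.101%, 0.0640 to 0.160) and 0.0966% of the distal regions outside protein-coding genes that also lacked siCONT H3K27ac. Of all siCONT H3K4me3 regions 27.5% were touched, a share that includes the regions acetylated in siCONT cells, which the rule had removed. Where no siCONT H3K27ac lay within 1 kb, the share of gene-body regions was 0.0117%. The strongest of the 18 lay in TRIM16, a gene of the tripartite motif family, at chr17:15551623-15552637 in intron 7. It had 118 fragments in siCONT cells, and the siDLEU1 region over it ran for 9843 bp against 1015 bp, with its summit outside. The next were in PIP5K1A, a phosphoinositide kinase (59 fragments in siCONT and 39 in siDLEU1 cells), and KIF17, a kinesin (53 and 51). The fourth was in AREGB, a copy of the amphiregulin gene, where reads may be split between the copies (49 and 27). After division by library depth, the siDLEU1 to siCONT ratio was 0.906 (0.588 to 1.38) for PIP5K1A and 1.32 (0.880 to 1.97) for KIF17. That for AREGB was 0.755 (0.454 to 1.23), and these intervals cover counting error only. The regions in TRIM16, PIP5K1A and AREGB lay 460, 198 and 356 bp from a siCONT H3K27ac region, and that in KIF17 34201 bp.

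The gene-body regions were spread over 4931 of 20098 protein-coding genes (24.5%), very unevenly. A single region was found in 1704 genes, while 447 genes with 10 or more held 6731 regions (37.8%). The most were in EXT1, which encodes an enzyme of heparan sulfate synthesis, with 64 regions, of which 35 were overlapped in siDLEU1 cells. EGFR, the epidermal growth factor receptor, followed with 59 (31 overlapped), and AOPEP, an aminopeptidase gene, with 52 (30).

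PTPN14, a tyrosine phosphatase, held 43 regions (27 overlapped) and BCAR3, an adaptor of adhesion signaling, 37 (22). The other genes with 37 were MAML2, a coactivator of Notch (17 overlapped), RUNX1, a transcription factor (28), and ENSG00000255872 (19), which overlaps the adaptor gene SHB and shares most of its regions. These genes are long, from 193 kb for EGFR to 1217 kb for RUNX1. Hosts were counted over the whole annotated gene. Several of the regions counted for AOPEP, BCAR3 and RUNX1 lay in no intron of the gene's canonical transcript. EGFR stood at a median local background of 1.3, against 0.700 over all gene-body regions and the part of this in its number of regions was not tested.

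Squamous and adhesion genes held many of these regions. Of 21 genes on this list 15 held 232 regions, or 179 per Mb of gene body, against 15.1 per Mb over all protein-coding genes and 23.1 in genes with both marks at a TSS. In siDLEU1 cells 144 of the 232 (62.1%) were overlapped (called kept below), close to the share of all gene-body regions. The list was chosen with results of these data known, and its density is a description.

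TP63, the gene of the squamous lineage factor p63, held 33 regions, of which 25 were overlapped. In intron 4, 7 regions lay within 13380 bp, and all 7 were overlapped. Outside this group the region of highest fold enrichment in the gene, at chr3:189540067-189544183, had 128 fragments in siCONT and 110 in siDLEU1 cells. Within the group the region at chr3:189558237-189562575 had 151 and 120, and that at chr3:189552051-189553665 had 149 and 117. After division by library depth these pairs differed by 0.24, 0.12 and 0.11 on the log2 scale, higher in siDLEU1 cells. Others of the group were lower there. The region at chr3:189553821-189554648 had 56 and 26 fragments (-0.65) and that at chr3:189549805-189551874 had 114 and 72 (-0.21).

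The cadherin and desmosome genes given next kept most of their regions. At CDH1, E-cadherin, all 12 regions were overlapped. In its intron 2, 3 neighbouring regions with 37, 42 and 62 fragments in siCONT cells were covered by a single siDLEU1 region with 120 fragments, whose summit fell inside the third. CDH3, P-cadherin, kept 12 of 16, the desmosome genes DSP 6 of 7 and PKP1 11 of 16, and the plakoglobin gene JUP 4 of 7.

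Laminins and their integrin receptors anchor epithelial cells to the basement membrane. LAMB3 kept 2 of 10 regions, with 125 and 95 fragments at its 2 strongest in siCONT cells. At each of these a siDLEU1 summit with 39 fragments fell inside. The integrin gene ITGA6 kept 8 of 15 and ITGA3 0 of 5, whose siCONT regions had 21 to 32 fragments. LAMA3 kept 8 of 8. CD44, a hyaluronan receptor, kept 15 of 21, the desmoglein gene DSG3 3 of 5 and COL17A1, a hemidesmosome collagen, 0 of 1. A difference between these genes was not tested.

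**Figure D3:**
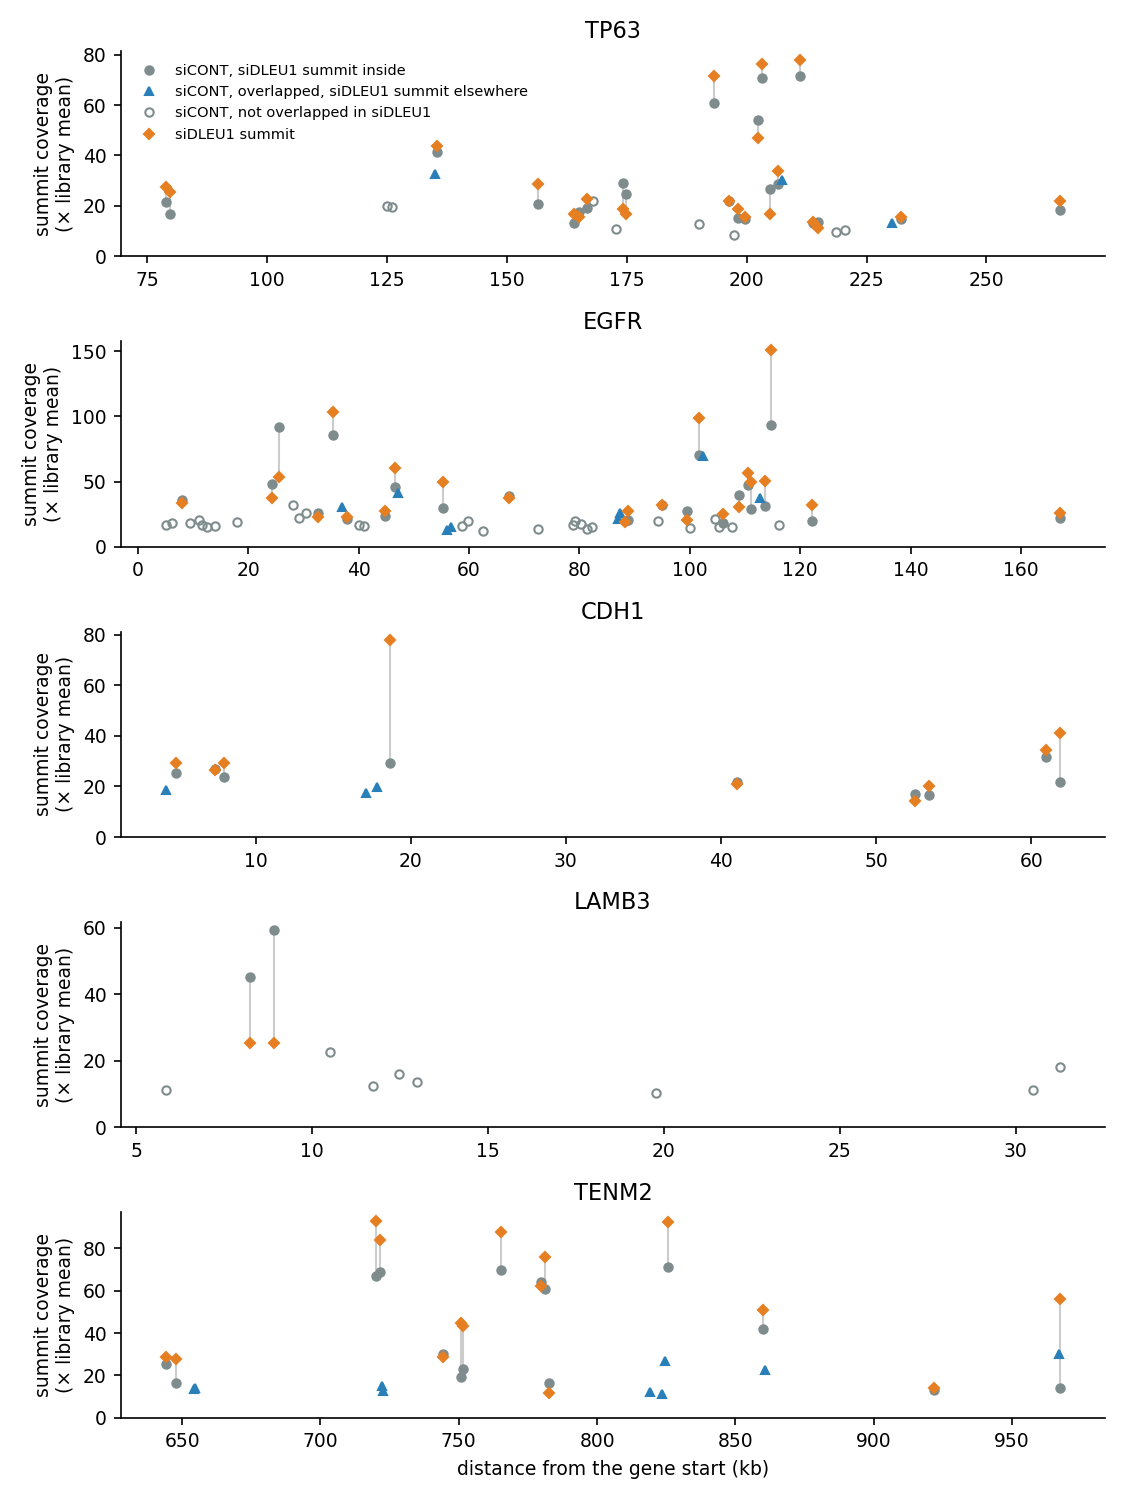
Summit coverage of each gene-body region (y axis, multiples of the mean fragments per position of its library) against distance from the gene start in kb, for TP63, EGFR, CDH1, LAMB3 and TENM2. Grey dots are siCONT regions with a siDLEU1 summit inside (orange diamonds, joined by a line), blue triangles are siCONT regions overlapped by a siDLEU1 region with its summit elsewhere, and open circles are not overlapped. EGFR has 28 open circles and LAMB3 8, while TENM2 and CDH1 have none.

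Of 17 interferon signaling genes, in which the study was interested, 5 held 7 regions. Of the 7, 3 were overlapped (42.9%, against 63.9% of all gene-body regions). These genes are short, and their 26.3 regions per Mb rest on 7 regions. This density stood above the 15.1 over all protein-coding genes but close to the 23.1 in genes with both marks at a TSS. The list was chosen by the study on its own expression and ChIP-seq data. MX2, an antiviral GTPase, held 1 region (overlapped), and the sensors of double-stranded RNA OAS2 1 (overlapped) and OAS1 1 (not overlapped). IFIT3 held 2, of which 1 was overlapped, and ADAR, an RNA-editing enzyme, 2 with no overlap. Both IFIT3 regions also lay inside another gene, on the minus strand, so they are not particular to IFIT3. The highest fold enrichment of the 7 was 6.09.

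Very long genes of common fragile sites were poor in these regions, with 43 in 9 of 16 genes and 1.77 per Mb. WWOX held 22 of the 43 (16 overlapped) and MACROD2 5 (4). Among 10 genes for enzymes that write or erase H3K4 methylation, SETD1B, KMT2D and KDM5B held 1 region each, of which those in SETD1B and KDM5B were overlapped.

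Gains and losses fell unevenly on host genes. Counting siCONT gene-body regions without overlap as lost and siDLEU1 regions of the same rule without overlap in siCONT as gained, 2315 of 5581 curated host genes lost more than they gained, 1684 gained more and 1582 were even. Over all gene-body regions, 63.9% of the siCONT and 72.6% of the siDLEU1 ones were overlapped in the other list. The siDLEU1 library was the shallower one, and depth and siRNA cannot be told apart in these counts. The genes given next were chosen after their values were seen. EXT1 lost 29 of 64 and gained 5, and EGFR lost 28 of 59 and gained 5. These are the hosts with the most regions. MYO10, a myosin of filopodia, lost 23 of 34 and gained 0. ITCH, a ubiquitin ligase, lost 21 of 24 and gained 0, and the lost ITCH regions had 19 to 41 fragments.

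The largest net gain was in TENM2, a teneurin adhesion protein. All 24 of its siCONT regions were overlapped, and 34 of the 55 siDLEU1 regions were new, with 17 to 100 fragments at the summit (median 29.5). RAD51B, a gene of recombination repair, lost 4 of 34, and 16 of its 46 siDLEU1 regions were new. Many of its siCONT regions lay in no intron of the canonical transcript. NEURL1, a ubiquitin ligase gene, lost 0 of 4 and gained 12, and the growth factor gene PDGFC lost 0 of 3 and gained 10. ITCH lies on chromosome 20, where overlap was lowest.

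The strongest gene-body regions differed little in height. That of highest fold enrichment (43.6) lay in BCL2L13, a mitochondrial BCL2 family gene, at chr22:18114509-18117669, with 276 fragments in siCONT and 212 in siDLEU1 cells. The ratio of depth-scaled coverage was 1.05 (0.876 to 1.26, counting error only). The BCL2L13 summit lay in no intron of the gene's canonical transcript. SYNE2, a gene of the nuclear envelope, had 235 and 176 (ratio 1.03), FAM178B 217 and 158 (0.998) and GLTP, a glycolipid transfer protein, 213 and 146 (0.939). SRC, the tyrosine kinase, had 204 and 175 (1.18, 0.955 to 1.45).

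VAV2, a guanine nucleotide exchange factor, was the exception among these 8. It had 230 fragments in siCONT and 240 in siDLEU1 cells, a ratio of 1.43 (1.19 to 1.72). GAGE10, with 207 and 179, belongs to a family of near-identical copies on the X chromosome, so its counts are uncertain. TNS4, a tensin of focal adhesions, had 207 and 163 (1.08, 0.873 to 1.33) and was also the widest gene-body region, at 13557 bp, which 4 siDLEU1 regions divided.

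The other widest regions were in DIP2B (8990 bp), MYOF, the gene of the membrane repair protein myoferlin (8932 bp), and SDC4 (8596 bp), a syndecan of cell adhesion. In siDLEU1 cells the MYOF region ran for 8948 bp and the SDC4 region for 9664 bp, while 3 regions covered the place of the DIP2B region. Their coverage ratios were 1.29 (1.03 to 1.61) for MYOF, 1.02 (0.826 to 1.25) for SDC4 and 1.11 (0.854 to 1.44) for DIP2B. In DIP2B the highest siDLEU1 summit of the 3 need not lie at the siCONT summit. The interval lay above 1 for MYOF and held 1 for SDC4 and DIP2B.

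The strongest regions that no siDLEU1 region overlapped were in VDAC2, a mitochondrial channel (fold enrichment 16.2, 99 fragments), AIM2, a DNA sensor (15.8, 134), TPST2, a sulfotransferase (14.8, 86), and LRP11 (13.7, 79). The AIM2 summit lay in no intron of the gene's canonical transcript. All 4 regions were intronic when every transcript was counted, and had a percentile between 81.2 and 87.1. Above them, every gene-body region was overlapped.

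In coding exons the strongest were in TACC2, CARS1, a cysteinyl-tRNA synthetase, and AL603965.1. TACC2 had 131 fragments in siCONT and 87 in siDLEU1 cells, a ratio of depth-scaled coverage of 0.910 (0.686 to 1.20). CARS1 had 152 and 81, and AL603965.1 had 116 and 74, a ratio of 0.874 (0.644 to 1.18). The last belongs to the ANXA8 family of near-identical copies, so its counts are uncertain. The fourth was in MPP2, a scaffold protein gene, at chr17:41973967-41976566, with 148 and 29, a ratio of 0.268 (0.174 to 0.402). The siCONT region of MPP2 was 2600 bp wide and the siDLEU1 region 375 bp. At CARS1 a region of 4900 bp was broken into 6, with a ratio of 0.730 (0.551 to 0.962) at the highest. That siDLEU1 summit need not lie at the place of the siCONT summit.

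Gene-body regions clustered at short range. Of the 17797, 9496 (53.4%) had another gene-body region within 400 bp. This gave 5492 neighbouring pairs with a median gap of 191 bp (smallest 60 bp). Such pairs were about as common elsewhere. There were 4662 among the 14486 distal regions outside protein-coding genes without H3K27ac and 7982 among the 23820 TSS regions. The gene-body regions formed 1063 groups of 3 or more. The largest group had 10 regions over 16155 bp in PXN, the gene of the focal adhesion protein paxillin, of which 7 were overlapped in siDLEU1 cells. The 8 strung along 21892 bp of MYOF were all overlapped.

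Paired regions were overlapped in 71.8% (70.9 to 72.7) and single ones in 54.8% (53.7 to 55.9). Pairs were also stronger, with a median percentile of 43.5 against 28.5. An overlap of 1 member of a pair can come from the same siDLEU1 region as that of the other, so the 2 are not independent.

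The gaps between these pairs were rich in the AP-1 motif, an analysis chosen after the values had been seen. In 250 bp around the gap centre, TGACTCA was present in 1144 of 5492 gaps (20.8%, 19.8 to 21.9), against 5.63% (5.21 to 6.07) of windows 1 kb to either side, a ratio of 3.70. It was 6.34% around the summits themselves, in 300 bp. The window of 250 bp is wider than the median gap of 191 bp, so in many pairs it reached into the neighbouring regions. Below, a gap is said to hold a motif when its window did. Gaps between distal regions outside protein-coding genes had 21.5% (flanks 6.17%) and gaps at TSSs 6.70% (flanks 3.76%).

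The gaps at TSSs held GGGCGG instead, in 61.5%, against 6.97% in gene-body gaps. GGAATG, a motif of TEAD factors that was added after seeing the data, was present in 19.0% of gene-body gaps and 13.6% of their flanks. The ISRE core had 5.57% against 3.74%. CACGTG did not differ beyond counting error, at 3.02% against 2.90%, and TATAAA was lower in gaps, at 15.7% against 18.1%.

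**Figure D4:**
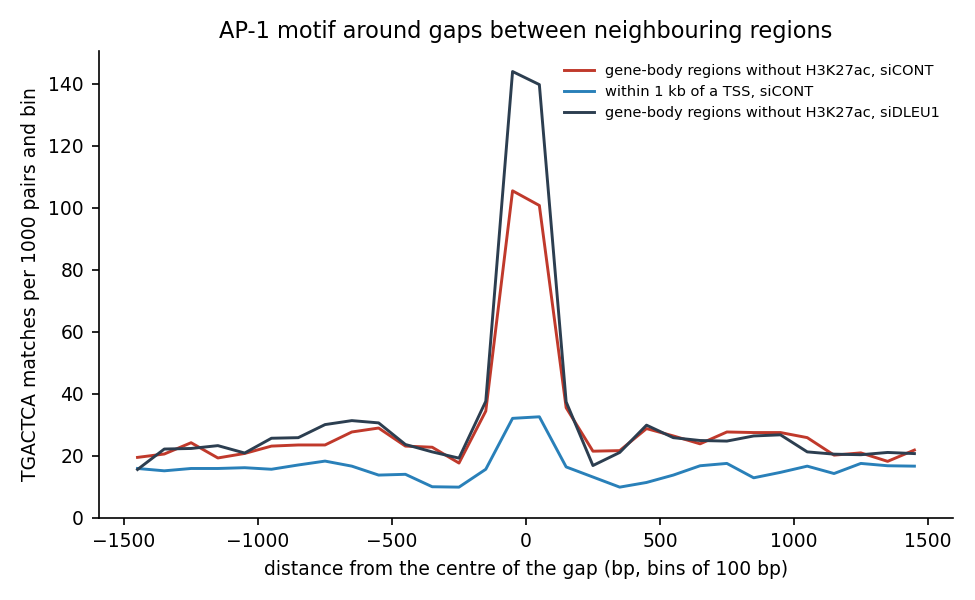
Matches to TGACTCA on either strand per 1000 pairs and bin (y axis) by distance from the centre of the gap between neighbouring H3K4me3 regions, in bins of 100 bp (x axis), for gene-body pairs of siCONT and siDLEU1 cells and for TSS pairs of siCONT cells. The bins beside the gap centre hold over 100 matches each in siCONT pairs and 144 and 140 in siDLEU1 gene-body pairs, against 32.1 and 32.6 at TSSs.

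Pairs with the motif were kept more often. Both regions were overlapped in siDLEU1 cells in 73.9% (71.2 to 76.3) of pairs with TGACTCA in the gap and 56.6% (55.1 to 58.0) of those without. Pairs with the motif were stronger, with a median percentile of the weaker region of 37.6 against 26.2. Within deciles of that percentile the difference averaged 13.0 points (10.0 to 16), from 26.7 points in the lowest decile to 1.0 in the highest.

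Gaps in the siDLEU1 lists held the motif more often, in 27.7% (26.5 to 28.9) of 5456 gene-body pairs, with flanks at 5.59%. The lists differed most in the pairs that the other list did not overlap at all. Of 774 siCONT pairs with neither region overlapped, 11.4% (9.32 to 13.8) held TGACTCA in the gap, while of 658 such siDLEU1 pairs 30.1% (26.7 to 33.7) did. Their flanks had 3.62% and 5.32%, the median gaps were 202 and 218 bp, and the median percentiles of the weaker region were 13.6 and 18.2. Pairs kept in full had 25.6% in the siCONT and 27.4% in the siDLEU1 list.

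The same was measured outside protein-coding genes, at 12.3% (9.57 to 15.7) of 438 siCONT pairs and 29.8% (26.8 to 32.8) of 894 siDLEU1 pairs without any overlap. At TSSs the shares were 10.7% (7.27 to 15.4) of 225 and 26.5% (20.3 to 33.8) of 162. This difference between the lists was therefore not particular to gene bodies, and with 1 library each the siRNA, the depth and the library cannot be told apart.

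**Figure D5:**
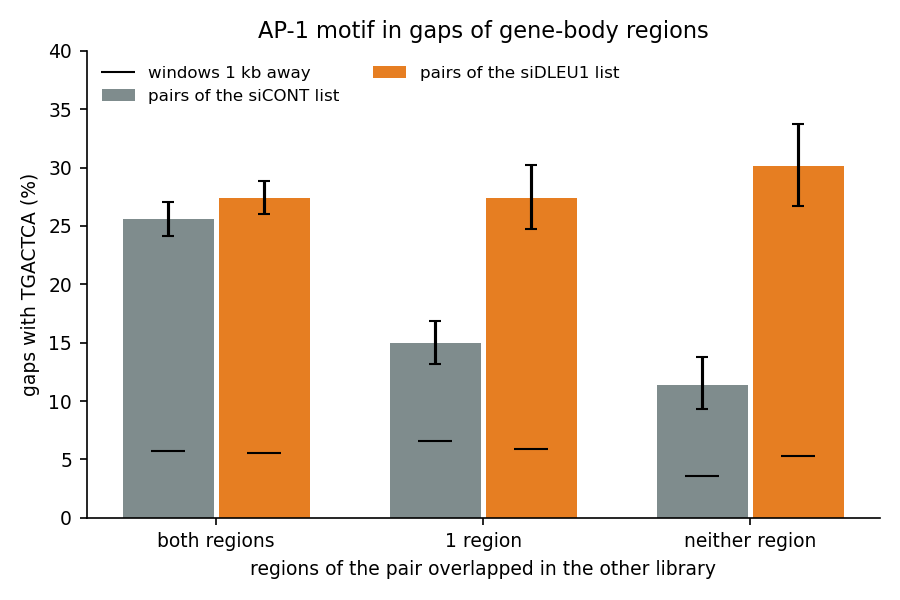
Share of gaps between neighbouring gene-body regions that hold TGACTCA (y axis, %), for pairs of the siCONT list (grey) and of the siDLEU1 list (orange), by how many regions of the pair the other list overlapped (x axis); bars are 95% Wilson intervals and black lines the share 1 kb away. With neither region overlapped the shares are 11.4% and 30.1%, and with both 25.6% and 27.4%. The motif was sought in 250 bp around the gap centre.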

How the data were processed

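ChIP-seq of H3K4me3 and H3K27ac was done in HSC3 cells with Active Motif and clone MC315 antibodies and sequenced on an Ion Proton. According to the study's methods the authors mapped reads to hg19 with bowtie2 and called peaks per library with MACS2. Settings, versions and the control used for calling are not given in the sources used here. The deposited lists give a fold ratio over local background, −log10 p-value and −log10 q-value of MACS2, and a score, which the authors' caller makes for display and which was not used. The 2 input libraries were not analysed here.

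Regions on chromosomes 1 to 22 and X, of which 0 ended past a chromosome end, were set against GENCODE on GRCh37 (226503 transcript starts of 38690 protein-coding and lncRNA genes) and overlapped by at least 1 bp. Regions were matched on strength by the percentile of fold enrichment within a list. Fragments at summits were solved from fold and p, with a p tolerance of 0.002, and the solving step was tested on 5952 simulated peaks (100% recovered). The simulation was given the true library scale and lowest background. In the data these were estimated from each list, a step that was not simulated, and fragment numbers ranged more widely. Named regions were the 8 hosts with most members, the 8 highest and 4 widest members, the 4 highest not overlapped, with siDLEU1 H3K27ac and in a coding exon, and listed hosts. Some listed hosts and 1 gap sequence are not reported here. Members and lists were chosen with earlier results of these data known. Host genes counted as curated have a RefSeq transcript. Promoter sequences are from RefSeq on GRCh38, and all printed sequences from the GRCh37 reference genome. Python 3.11.15, numpy 2.4.6, pandas 2.3.3, scipy 1.17.1 and pysam 0.24.0 were used.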

Additional observations from a re-analysis of the deposited data

How the results depend on the processing

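Gene-body regions were overlapped less often than others of the same strength under every alternative tried. The mean difference was -9.31 points at the stricter limit on −log10 q (10), -4.99 and -3.54 with 2 and 5 kb from a TSS, -6.99 with 1 TSS per gene, -9.03 with an overlap of 50% of both regions and -11.8 when matched on width. The number of regions was 4985 with the stricter q and 11636 at 5 kb. The share overlapped was 70.0% with the stricter q, 64.7% at 2 kb, 65.9% at 5 kb, 41.4% with 50% of both regions, 78.3% with any region within 1 kb and 65.5% with equal numbers of regions. The exon share was 6.28% with the stricter q, 5.16% at 2 kb, 3.93% at 5 kb, 9.11% with 1 TSS per gene and 4.33% with exons of 1 transcript per gene. The exonic share of bases was not recomputed for these settings, so whether exons were over- or under-represented under them was not measured. The share touched by siDLEU1 H3K27ac was 0.0401% with the stricter q, 0.0255% at 2 kb, 0.00859% at 5 kb, 0.195% with 1 TSS per gene, 0.0117% without H3K27ac within 1 kb, 0.0225% with 50% of both regions, 2.87% with any region within 1 kb and 0.221% with equal numbers. TGACTCA was in the window around the centre of 19.0% of gaps of up to 200 bp and of 27.7% of gaps of the siDLEU1 lists. The cause of these shifts was not tested. The gap analyses, matching on recovered fragments and the RefSeq-curated TSS set were chosen after seeing the data.

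No paired analysis was possible because each siRNA and mark has 1 library, and no replicate was left out for the same reason. Repeat content was not run, since the reference used marks no repeats. Regions near the calling limit have few fragments, and whether a weak region is absent or not detected at this depth cannot be told apart.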

Other observations

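Among gene-body regions from the 70th percentile of fold enrichment upward, those with the largest change in coverage were chosen after their values were seen. The largest falls were in USHBP1 (92 fragments in siCONT and 17 in siDLEU1 cells, ratio 0.253, 0.141 to 0.428), in CAPN2, a calpain gene (128 and 25, ratio 0.268), in MPP2, described above, and in ADARB2, of the RNA-editing family (86 and 17, ratio 0.271). The largest rises were in NBDY (83 and 159, ratio 2.62, 2.0 to 3.47), in KCNC1, a potassium channel gene (70 and 130, ratio 2.54), in MGLL, a lipase gene (60 and 109, ratio 2.49), and in BAIAP2 (72 and 124, ratio 2.36). The USHBP1 and MGLL summits lay in a 3′ UTR and the others, apart from MPP2, in introns. Those of CAPN2 and KCNC1 lay in no intron of the canonical transcript. In ADARB2 the siDLEU1 region did not cover the siCONT summit, so the ratio compares 2 different places. In USHBP1, CAPN2 and BAIAP2, 2 siDLEU1 regions overlapped the siCONT region, and a siDLEU1 summit outside it was not counted. Each interval covers the counting of fragments only, and no replicate library stands behind these values.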
